A study of Homo sapiens with 4 samples.

Results

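The genes described here are 44 integrin subunits, laminin chains and other matrix glycoproteins, matched by symbol to the Ensembl identifiers of the count tables. Their list was chosen with earlier results of these data known. All 44 were found among the 62893 genes of those tables. They comprise 24 receptor genes, which are integrin alpha and beta subunits, and 20 genes of laminins, basement membrane linkers and matrix glycoproteins, called ligands here although some bind integrins weakly or not at all. RNA sequencing counts came from Hep-G2, a human hepatoma-derived line, in which FTO, a demethylase of N6-methyladenosine in RNA, was targeted by 1 shRNA (TRCN0000246247) or which carried a scramble shRNA (SHC002). Both groups were Hep-G2 cells at passage 21, so the line and the passage were shared, and each group rests on a single shRNA. Every group has 2 count tables, called run 1 and run 2.

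Integrins are cell surface receptors made of 1 alpha and 1 beta chain, and the pair decides which matrix protein is bound: laminin, collagen, or proteins that display the short motif arginine-glycine-aspartate (RGD). Laminins are cross-shaped trimers of an alpha, a beta and a gamma chain that form the sheet of a basement membrane, where nidogen, perlecan and agrin tie them to collagen and to the cell. Liver sinusoids lack a continuous basement membrane, and fibronectin made by hepatocytes is both a plasma protein and a matrix protein.

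The tables held 20047409 to 20706611 reads assigned to genes. The runs of a group differed by no more than sampling noise. Their chi-square per degree of freedom was 1.019 for scramble (13359 genes, chi-square test, p = 0.0648) and 1.013 for shFTO (13674 genes, p = 0.142), against 118.469 to 120.434 between groups. The runs were therefore pooled and counted as 1 sample per group, and the comparison has no replicate check. Nothing in the labels says that the tables came from separate cultures. Levels are reads per 1e6 reads of the library after TMM scaling (CPM). Folds are ratios of pooled CPM with exact 95% Clopper-Pearson intervals, which cover counting error only, and a fold of at least 2 was called. FTO itself had 594 and 550 reads in scramble against 116 and 128 in shFTO, 5.32-fold lower (4.63 to 6.13). Hepatocyte markers such as ALB, APOB and HNF4A were present in all runs, although the summed level of the 12 hepatocyte and hepatoma markers was 42766 to 42838 CPM in scramble and 17499 to 17562 in shFTO.

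The largest difference toward higher expression among ligands concerned NPNT, and its protein carries the RGD motif that integrins read. The coding stretches around the RGD triplet of NPNT, FN1 and THBS1 are shown because these RGD-bearing ligands differed between the groups in different directions. They run 5′ to 3′ in the coding strand of the longest coding transcript in GENCODE v29 (GRCh38), and capitals mark the RGD codons, which start at residue 412 of NPNT, 1615 of FN1 and 926 of THBS1.
NPNT: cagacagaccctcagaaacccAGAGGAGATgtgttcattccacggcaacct
FN1: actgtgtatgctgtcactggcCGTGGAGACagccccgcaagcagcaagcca
THBS1: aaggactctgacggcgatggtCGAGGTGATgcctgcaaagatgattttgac
Of the 20 ligand genes, 10 (50%) code for at least 1 RGD, against 8.14% of the longest coded proteins of 19523 genes. The others are LAMA1, LAMA3, LAMA4, LAMA5, LAMC3, NID1 and TNC. The shares were not matched for protein length, and ligands such as LAMA5 (3695 residues) and LAMA3 (3333 residues) are long. The triplet is not particular to ligands, as ITGA2, ITGA8, ITGA10, ITGB2, ITGB4, ITGB5 and ITGB6 code for it too. A match to these letters is a description and does not show that an integrin binds there. On the receptor side, 11 of the 16 alpha chains (68.8%) carry the membrane-proximal tail motif GFFKR, against 0.138% of all genes.

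NPNT (ENSG00000168743, chromosome 4) encodes nephronectin, a secreted basement membrane protein known as the ligand of the integrin made by ITGA8 and ITGB1. Scramble held 27 and 37 of its reads (1.43 and 1.91 CPM), shFTO 1102 and 1181 (51.5 and 53.8 CPM). All shFTO values lay far above all scramble values, and the pooled level was 31.4-fold higher (24.5 to 41). The known receptor partner was not seen to accompany it: ITGA8 had no read in any of the 4 runs, which allows up to 0.0785 CPM in scramble and 0.0692 CPM in shFTO over pooled runs, at 3 reads. ITGB1, the shared beta chain, was the most abundant integrin transcript in both groups. NPNT can also be bound by integrins with ITGAV, whose levels are given with the receptors.

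FN1 (ENSG00000115414, chromosome 2), which encodes fibronectin, went the other way. It had 255966 and 260844 reads in scramble and 174257 and 178342 in shFTO, that is 13536 and 13498 against 8136 and 8122 CPM. The shFTO runs were lower without overlap, by 1.66-fold (1.66 to 1.67), short of a called difference. FN1 ranked first among all genes by reads in each of the 4 runs. Its share of all gene-assigned reads was 1.28% and 1.27% in scramble and 0.862% and 0.861% in shFTO, and its share of the reads of the 44 genes was 73.3% and 73.2% against 60.4% and 60.4%. Sums of the ligand set therefore follow FN1: 16742 to 16780 CPM in scramble and 11834 to 11856 in shFTO.

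THBS1 (ENSG00000137801, chromosome 15) encodes thrombospondin, an activator of latent TGF-beta that is bound by CD36 and CD47 as well as by integrins. Its reads were 1951 and 2030 in scramble and 7466 and 7600 in shFTO, or 103 and 105 against 349 and 346 CPM. Both shFTO runs were above both scramble runs, 3.34-fold on pooled values (3.22 to 3.46). SPARC (ENSG00000113140, chromosome 5), a collagen-binding matricellular protein, had 198 and 199 reads in scramble and 628 and 603 in shFTO. In CPM these were 10.5 and 10.3 against 29.3 and 27.5, and the pooled level was 2.73-fold higher (2.44 to 3.07). FBLN1 (ENSG00000077942, chromosome 22), a fibulin that binds fibronectin and elastic fibres, was the only ligand called lower among those tested. It went from 7052 and 7219 reads (373 and 374 CPM) in scramble to 2960 and 3140 (138 and 143 CPM) in shFTO, 2.65-fold lower (2.58 to 2.74). TNC, tenascin-C, had no read in any run. Of the 6 matrix glycoproteins, 5 had enough reads to be tested, and 3 were called higher, 1 lower and FN1 neither, with a median log2 ratio of 1.45. Over all tested genes 5.18% were called higher and 6.19% lower.

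**Figure D1:**
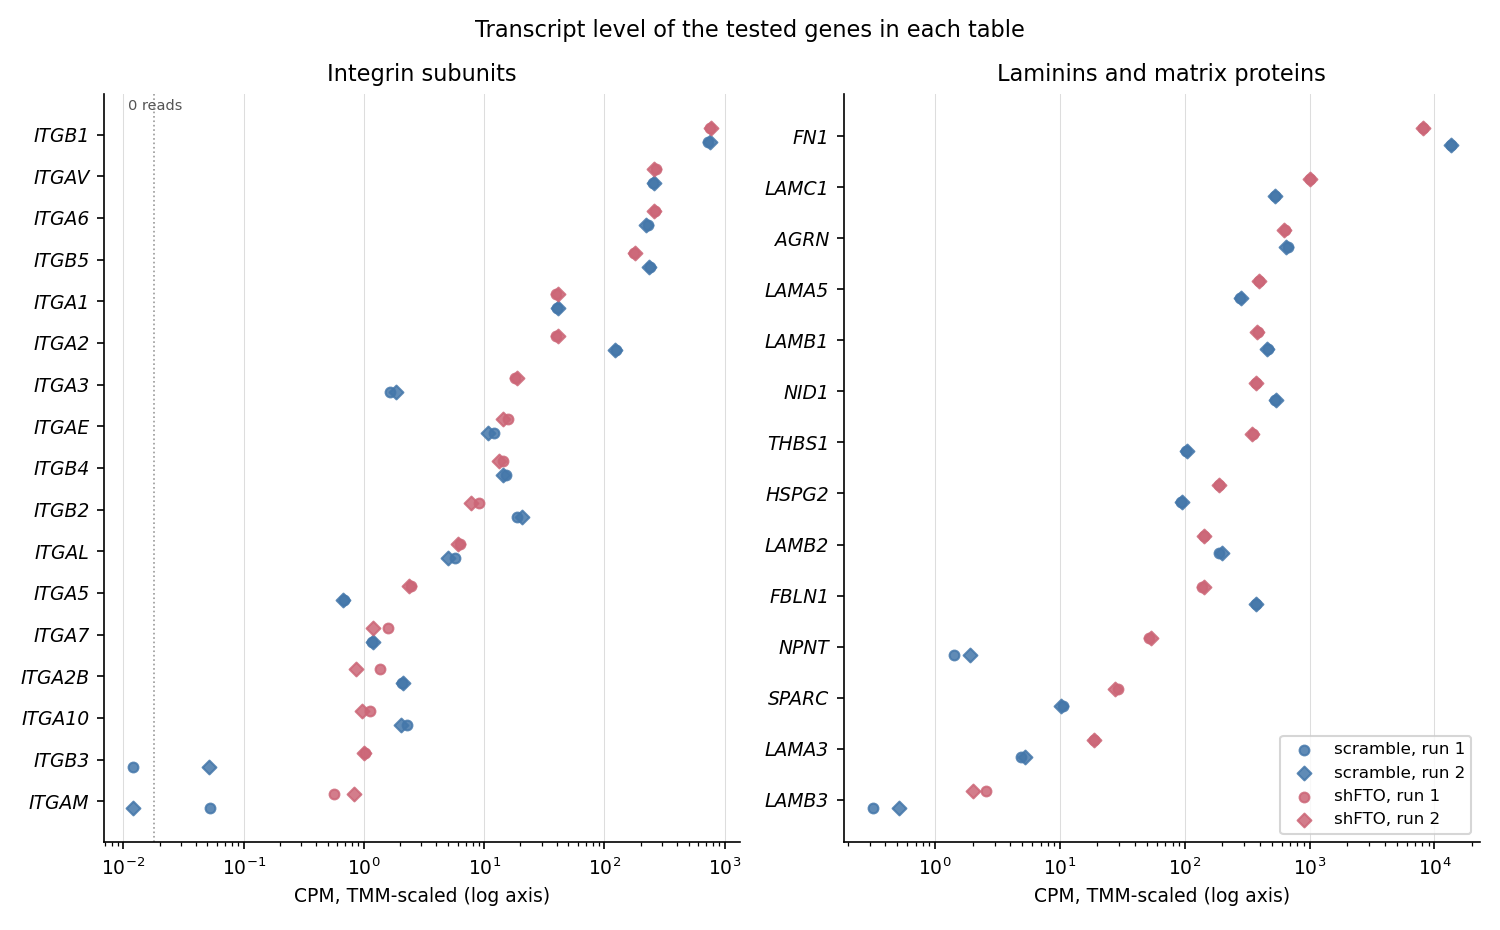
Level of each gene in CPM on a log axis, by role, with 1 point per run and the groups in different colours. Points left of the dotted line stand for 0 reads. NPNT and ITGA3 show widely separated groups, whereas ITGB1 and ITGAV nearly coincide.

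The tested laminin chains comprised 4 abundant ones and the scarce LAMA3 and LAMB3. LAMC1 (ENSG00000135862, chromosome 1), the gamma chain shared by most laminins, had 10048 and 10204 reads in scramble and 21790 and 22260 in shFTO, or 531 and 528 against 1017 and 1014 CPM. The shFTO runs were higher by 1.92-fold (1.89 to 1.95), an interval that stops short of the call. LAMA5 (ENSG00000130702, chromosome 20), the alpha chain of adult epithelial basement membranes, had 278 and 281 CPM in scramble and 392 and 395 in shFTO, 1.41-fold higher (1.37 to 1.44). The abundant beta chains lay lower in shFTO. LAMB1 went from 463 and 458 to 389 and 382 CPM, 1.19-fold lower (1.17 to 1.22). LAMB2 went from 187 and 199 to 142 and 142 CPM, 1.36-fold lower (1.31 to 1.4). Among these 4 abundant chains, LAMA5 and LAMC1 were thus higher and LAMB1 and LAMB2 lower in the same libraries.

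Both laminin chains called at 2-fold or more were scarce. LAMA3 (ENSG00000053747, chromosome 18), an alpha chain of epithelial anchoring laminin, had 92 and 102 reads in scramble and 401 and 416 in shFTO (4.87 and 5.28 against 18.7 and 18.9 CPM), 3.71-fold higher (3.17 to 4.36). LAMB3, its beta chain partner in skin, had 6 and 10 reads in scramble and 55 and 44 in shFTO, 5.45-fold higher (3.2 to 9.91). LAMB3 lies under the read filter in scramble, so its fold rests on few reads. Per kilobase of exon, LAMA3 stood at 0.46 and 1.71 CPM and LAMB3 at 0.0932 and 0.508 in scramble and shFTO, far under LAMC1 at 67.1 and 129. Of the 10 laminin chains, 6 were tested, with 2 called higher, none lower and a median log2 ratio of 0.72. The shares over all tested genes were 5.18% called higher and 6.19% lower. LAMB3 passed the read filter only through its shFTO reads, and without it the median would be that of LAMA5 (0.49).

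Among linkers that join laminin to other molecules, HSPG2 (ENSG00000142798, chromosome 1), which encodes perlecan, a heparan sulfate proteoglycan, had 93 and 95.4 CPM in scramble and 189 and 188 in shFTO. That is 2-fold higher with an interval of 1.92 to 2.08, which spans the call, and the call was lost with DESeq2 size factors (1.99), without scramble run 1 (1.97) and, just under the threshold, without shFTO run 1. NID1, nidogen, which bridges laminin and collagen, went from 532 and 537 to 370 and 370 CPM, 1.44-fold lower (1.41 to 1.47). AGRN, agrin, another proteoglycan that binds laminin, had 666 and 649 against 631 and 628 CPM, 1.05-fold lower (1.03 to 1.06). The sign of AGRN turned with plain library size scaling (log2 ratio -0.06 to 0.10).

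**Figure D2:**
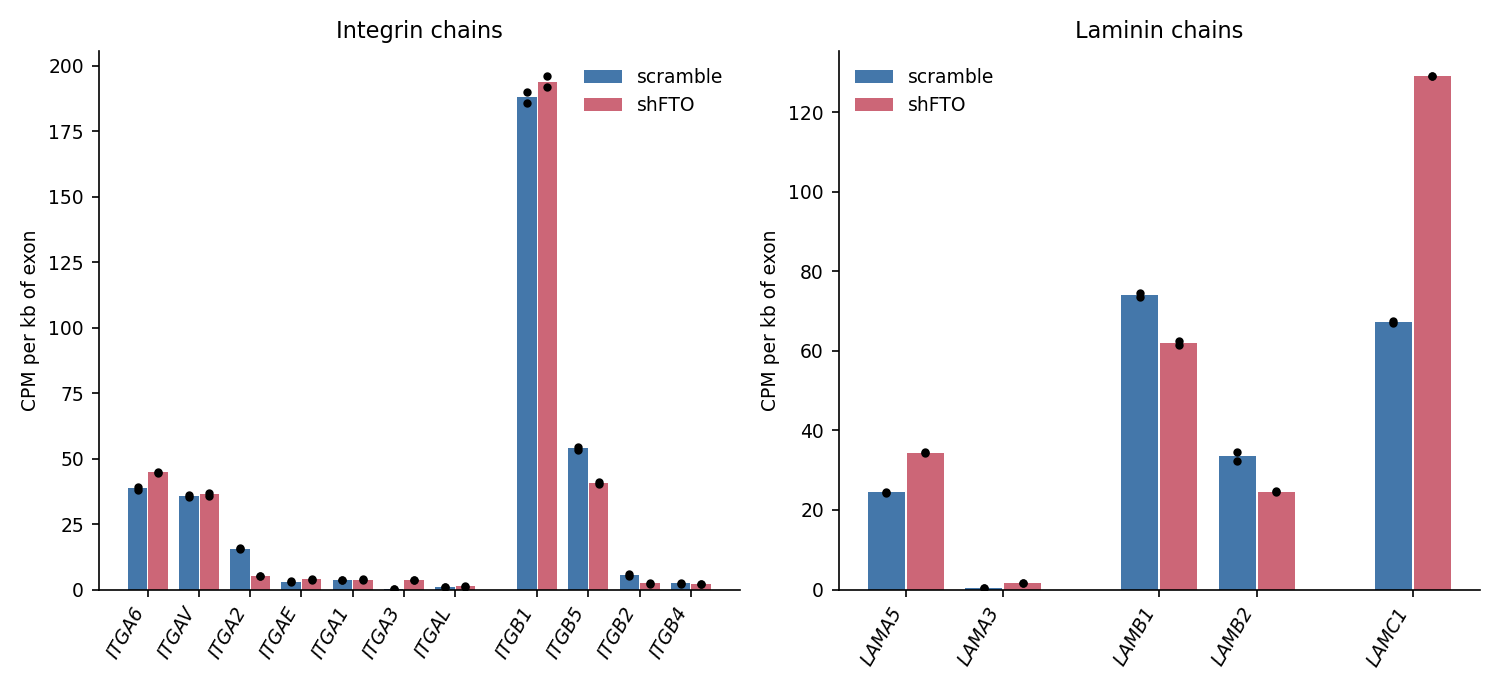
Composition of the integrin and laminin chain families as CPM per kilobase of exon. Bars are the mean of the 2 runs of a group, points are single runs, and chains that reach at least 1 CPM per kilobase in any run are drawn. LAMC1 is taller in shFTO, ITGA2 is shorter, and ITGB1 is nearly level.

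Receptor genes fell into few abundant and many scarce chains. ITGA3 (ENSG00000005884, chromosome 17), the alpha chain of a laminin receptor of epithelia, had 31 and 36 reads in scramble and 390 and 412 in shFTO, or 1.64 and 1.86 against 18.2 and 18.8 CPM. The groups were well apart and the pooled level was 10.6-fold higher (8.22 to 13.8). ITGA6, the other main laminin-binding alpha chain, had 229 and 223 against 262 and 260 CPM, 1.15-fold higher (1.12 to 1.19). ITGA7, a laminin receptor of muscle, had 22 and 23 reads against 34 and 26, and its runs overlapped in CPM. Even so ITGA3 was the scarcer chain, at 3.78 CPM per kilobase in shFTO beside 44.7 for ITGA6.

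Collagen-binding alpha chains were lower in shFTO or level. ITGA2 (ENSG00000164171, chromosome 5), an alpha chain of an integrin that binds collagen and laminin, had 2336 and 2368 reads in scramble and 841 and 903 in shFTO (124 and 123 against 39.3 and 41.1 CPM), 3.06-fold lower (2.9 to 3.23). Both shFTO runs were below both scramble runs. ITGA10, a collagen receptor of cartilage, had 43 and 39 against 24 and 21 reads, 2.07-fold lower (1.42 to 3.04). That call was lost without scramble run 1 (1.95) and without shFTO run 2 (1.91). ITGA1, the chain that recognises basement membrane collagen, had 40.4 and 40.7 against 39.9 and 41.4 CPM, a ratio of 1 (0.937 to 1.07), and its runs overlapped. It shares 2.6% of its exon bases with PELO, which had 2449 reads to its 3314. ITGA11 had 1 or 2 reads in each run.

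Of the alpha chains that read RGD, ITGAV carried most of the transcripts. Its level was 255 and 259 CPM in scramble and 266 and 258 in shFTO, a ratio of 1.02 (0.99 to 1.05) with overlapping runs. ITGA5, the alpha chain of the classical fibronectin receptor, had 13 and 13 reads in scramble and 53 and 52 in shFTO, 3.56-fold higher (2.3 to 5.7), while FN1 was lower. ITGA5 nevertheless reached only 0.545 CPM per kilobase in shFTO, beside 36.3 for ITGAV. ITGA2B, the platelet fibrinogen receptor chain, had 39 and 41 against 29 and 19 reads, 1.89-fold lower (1.31 to 2.76). Without shFTO run 1 it was 2.42-fold lower.

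The beta chains were led by ITGB1 (ENSG00000150093, chromosome 10), partner of most alpha chains above, at 729 and 748 CPM in scramble and 756 and 769 in shFTO, 1.03-fold higher (1.02 to 1.05). ITGB5 (ENSG00000082781, chromosome 3), the ITGAV partner in vitronectin binding, went from 239 and 233 to 176 and 179 CPM, 1.33-fold lower (1.29 to 1.37). ITGB4, which pairs with ITGA6 in hemidesmosomes, had 15.1 and 14.3 against 14.3 and 13.2 CPM with overlapping runs, and its sign turned with plain library size scaling (log2 ratio -0.10 to 0.07). ITGB3, a chain that pairs with ITGAV or ITGA2B, had 0 and 1 reads in scramble and 22 and 22 in shFTO, a ratio of 38.8 with a counting interval of 6.61 to 1566. ITGB3 shares 51.6% of its exon bases with AC068234.1 on the same strand, which had no read. How reads in the shared bases were assigned was not examined, so that lack of reads does not show that the ITGB3 count is complete.

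Leukocyte integrin chains were present at low level. ITGB2 (ENSG00000160255, chromosome 21), the common beta chain of leukocyte integrins, had 351 and 396 reads in scramble and 193 and 170 in shFTO (18.6 and 20.5 against 9.01 and 7.74 CPM), 2.33-fold lower (2.06 to 2.65). Its alpha partner ITGAL had 5.76 and 5.02 against 6.26 and 6.06 CPM, a ratio of 1.14 (0.949 to 1.38). ITGAM, another partner, had 1 and 0 reads in scramble and 12 and 18 in shFTO, a ratio of 26.4 (4.4 to 1079). ITGAE, a chain of intraepithelial lymphocytes that pairs with ITGB7, had 12.1 and 10.8 against 15.8 and 14.4 CPM, 1.32-fold higher (1.17 to 1.49). It shares 6.4% of its exon bases with HASPIN, which had 663 reads to its 1091. Of the 12 leukocyte markers, PTPRC and CD3E had no read in any run. The summed level of the list was 3006 to 3012 CPM in scramble and 236 to 238 in shFTO, nearly all of it LYZ, at 3002 and 232 CPM. The difference in this sum is therefore a difference of LYZ in Hep-G2 libraries and gives no count of leukocytes. Its cause was not tested.

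A difference between the receptor and the ligand set was not tested. Of the 44 genes 31 had enough reads to be tested. Of these, 10 were at least 2-fold higher in shFTO, against 5.18% of the 13767 tested genes, and 4 were at least 2-fold lower, against 6.19%. The members were chosen with earlier results of these data known, so the gap to these shares cannot show that the family differs from other genes. Of the 17 tested integrin genes 4 were called higher and 3 lower, with a median log2 ratio of 0.05. Among the 14 tested ligands 6 were called higher and 1 lower, with a median of 0.72. The median of all tested genes was 0.01. ITGAM, ITGB3 and LAMB3, all called higher, passed the read filter only through their shFTO reads, so these counts and medians do not describe all members. The ligand median lies between LAMA5 (0.49) and LAMC1 (0.94), and without LAMB3 it would be that of LAMA5. With edgeR's quasi-likelihood test, which here sets library against library rather than condition against condition, 15 of the 31 passed as higher and 11 as lower, beside 33.2% and 33.4% of all tested genes. The 5 that did not pass were ITGA1, ITGA7, ITGAL, ITGAV and ITGB4. The runs of the groups did not overlap for 27 of the 31, beside 81.6% of all tested genes. A restriction chosen after the data were seen, to members averaging 1 CPM or more whose exons overlap no other gene, left 12, with 3 called higher and 2 lower. Shares over all genes were not computed under this restriction. The median log2 ratio was then -0.43, at -0.41 for integrins and -0.44 for ligands. The restriction dropped members for any overlap. NPNT, HSPG2 and SPARC were dropped although their overlapping genes had 0 to 5 reads over the 4 runs. LAMA5 and LAMB1 were dropped as well, beside ADRM1 (9985 reads) and DLD (6877 reads). The part of overlap in the medians was not tested. The members are long genes, with a median exon length of 5269 bases beside 3476 for tested genes. Among the 3564 tested genes of at least that length, 5.81% were called higher and 4.29% lower, with a median of 0.12. The share of length in the members' counts was not tested.

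**Figure D3:**
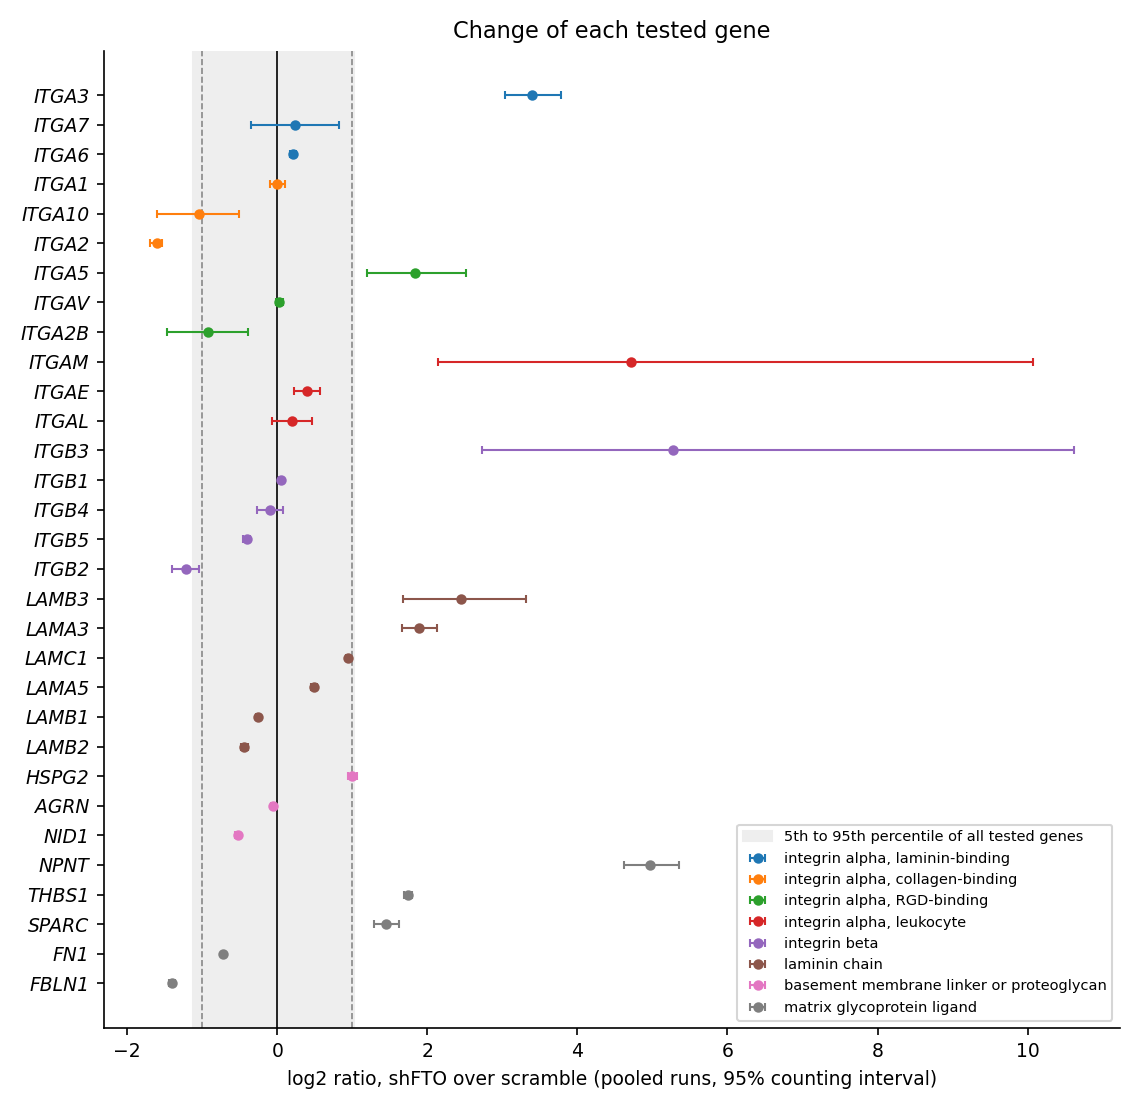
Log2 ratio of shFTO to scramble for each tested gene with its 95% counting interval. Dashed lines mark 2-fold and the grey band spans the 5th to the 95th percentile of all tested genes, -1.13 to 1.02. NPNT, ITGA3, ITGB3 and ITGAM lie far to the right, and ITGA2, FBLN1 and ITGB2 lie left of the band.

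The sum over integrin alpha chains was level while its make-up shifted. The integrin alpha chains together came to 100 and 99.2 CPM per kilobase in scramble and 101 and 99.6 in shFTO, with overlapping runs. Within that sum ITGA2 went from 15.7% in both scramble runs to 4.93% and 5.25%. ITGA3 went from 0.334% and 0.384% to 3.68% and 3.85%, and ITGA6 from 39.2% and 38.5% to 44.3% and 44.8%. ITGAV held 35.3% and 36.2% against 36.5% and 35.9%, with overlap. The beta chains summed to 248 and 252 against 238 and 241, of which ITGB1 made up 74.8% and 75.6% against 80.9% and 81.1%. Laminin alpha chains summed to 24.8 and 25.1 against 36 and 36.4 CPM per kilobase, and LAMA5 made up 98.1% and 98% against 95.1% and 95.2%. Laminin beta chains summed to 107 and 108 against 87.8 and 86.6. Listed gamma chains summed to 67.4 and 67 against 129 and 129. Over the listed chains, the beta sum was thus above the gamma sum in scramble and below it in shFTO.

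Of the 13 genes without enough reads for a test, ITGA8, ITGA4 and TNC had no read. ITGA11, ITGB6, LAMA2 and LAMA4 had between 1 and 19 reads over the 4 runs. The remaining 6 had at least 20. ITGA9, a chain that binds tenascin and other ligands, had 9 and 15 reads in scramble and 5 and 1 in shFTO, 4.54-fold lower (1.81 to 13.6). LAMC3 had 7 and 11 against 4 and 2, 3.4-fold lower (1.29 to 10.5), and LAMA1, an embryonic laminin alpha chain, had 4 and 0 against 11 and 5, a ratio of 3.53 (1.14 to 14.5). ITGB8 had 7 and 6 against 8 and 9 reads, a ratio of 1.15 (0.527 to 2.58). Reads for ITGB7 were 9, 6, 7 and 1, and those for NID2, a second nidogen, were 5, 5, 11 and 9. Exons of ITGB7 overlap ZNF740 (3651 reads) over 42.1% of their bases, and those of NID2 overlap RTRAF (5755 reads) over 30%. ITGA9 exons overlap ITGA9-AS1 (87 reads, beside 30 of ITGA9) over 6.5%. Where strand is not known, such reads cannot be told apart.

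Promoters of 4 genes called in opposite directions, ITGA2 and FBLN1 as lower and NPNT and THBS1 as higher, are shown so that their make-up can be compared. They are the 250 bases before the gene start in RefSeq (GRCh38.p14), and capitals mark GGGCGG (GC box) or GGAATG (TEAD motif) on either strand.
ITGA2 chr5:52989102-52989351, plus strand: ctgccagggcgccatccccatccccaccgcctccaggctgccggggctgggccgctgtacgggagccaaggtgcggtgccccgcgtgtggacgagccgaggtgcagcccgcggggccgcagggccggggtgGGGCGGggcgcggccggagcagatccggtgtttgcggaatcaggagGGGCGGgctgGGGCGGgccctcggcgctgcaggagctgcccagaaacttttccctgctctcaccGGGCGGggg
NPNT chr4:105895221-105895470, plus strand: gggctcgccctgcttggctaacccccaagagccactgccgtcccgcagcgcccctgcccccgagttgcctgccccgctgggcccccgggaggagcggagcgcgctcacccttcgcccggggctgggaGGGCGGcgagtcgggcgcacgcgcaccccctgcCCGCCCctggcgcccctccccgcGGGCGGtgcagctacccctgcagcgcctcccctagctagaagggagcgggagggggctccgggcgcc
THBS1 chr15:39580829-39581078, plus strand: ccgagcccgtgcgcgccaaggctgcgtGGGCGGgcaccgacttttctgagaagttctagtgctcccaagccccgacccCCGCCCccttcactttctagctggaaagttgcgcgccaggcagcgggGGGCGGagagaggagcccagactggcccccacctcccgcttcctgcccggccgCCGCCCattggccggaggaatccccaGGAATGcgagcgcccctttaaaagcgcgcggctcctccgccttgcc
FBLN1 chr22:45502633-45502882, plus strand: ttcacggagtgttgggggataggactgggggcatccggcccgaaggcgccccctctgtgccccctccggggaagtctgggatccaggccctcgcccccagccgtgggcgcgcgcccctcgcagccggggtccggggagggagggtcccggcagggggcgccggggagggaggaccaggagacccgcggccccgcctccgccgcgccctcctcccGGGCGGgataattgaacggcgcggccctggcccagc
GC boxes numbered 4 in ITGA2, 3 in NPNT, 4 in THBS1 and 1 in FBLN1, so genes called in either direction held them. Among the 29 genes with one promoter entry 18 (62.1%) held GGGCGG, beside 42.6% of 35116 promoters. The 35116 were not limited to genes with a single entry, so the sets are unlike. Members without exactly 1 entry, among them ITGA3, ITGA6, ITGAV and ITGB1, are not in the 29. GGAATG was in 5 (17.2%) beside 11.9%, and TGANTCA, the AP-1 motif, in 1 (3.45%), which is LAMA3, beside 6.57%. TATAAA and CACGTG were in none, beside 10.7% and 6.34%. The median GC content was 68% beside 58% of all promoters, and the median number of CpG was 18 beside 11. A match, or the lack of one in this window, says nothing about binding of a factor.

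Of all tested genes, 5.18% were called higher and 6.19% lower, and the related gene lists stand beside these shares. These lists too were chosen with earlier results of these data known. In the list of 42 adaptors and focal adhesion genes 40 were tested, and 3 were called higher and 2 lower, with a median log2 ratio of 0.11. ENAH, an actin elongation factor, had 2626 and 2798 reads against 13911 and 14588, 4.63-fold higher (4.5 to 4.77). TNS4 was 2.85-fold higher (2.33 to 3.51). KANK2, a talin-binding protein, was 2.45-fold higher (2.28 to 2.63). TNS1, a tensin that links integrin tails to actin, was 2.75-fold lower (2.58 to 2.93). NEDD9, a scaffold of adhesion signalling, was lower by a factor of 2.26 (2.2 to 2.32). The tensins TNS4 and TNS1 were thus called in opposite directions. The talin gene TLN1 had 257 CPM in scramble and 373 in shFTO, and the kinase gene PTK2 had 107 and 91.9, values given for their central role in adhesion and outside the rule for named genes.

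Membrane partners and other receptors stand beside 12202 of 13767 tested genes that were within 2-fold. Of 17 tetraspanin and membrane partners 12 were tested, 1 called each way, with a median of 0.14. CD9, a tetraspanin, was 2.54-fold lower (2.3 to 2.81), and CAV2, at 11 reads against 33, was 2.64-fold higher (1.3 to 5.8). CAV2 passed the read filter only through its shFTO reads. Among 19 other laminin and matrix receptors 16 were tested, of which 4 were called higher and none lower, with a median of -0.07. DAG1, which encodes dystroglycan, a non-integrin laminin receptor, had 4207 and 4257 reads in scramble and 9675 and 9663 in shFTO, 2.01-fold higher (1.96 to 2.07). The heparan sulfate proteoglycans GPC1 and SDC3 were higher by a factor of 2.61 (2.44 to 2.8) and 2.15 (1.86 to 2.49). CD36, the thrombospondin receptor, was 2.19-fold higher (1.81 to 2.67).

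Among integrin ligands beyond the 20, 27 were listed and 20 tested. Of these 1 was called higher, 8 lower, beside 6.19% of all tested genes, and 11 neither, with a median log2 ratio of -0.46. The fibrinogen chains, plasma ligands of ITGA2B and of ITGAM integrins, were lowest. FGA was 78.9-fold lower (70.7 to 88.2), with 11378 and 11631 reads in scramble against 175 and 156. FGB was lower by a factor of 52.9 (42.9 to 66), and FGG by a factor of 44.9 (41.6 to 48.5). MADCAM1 was 5.4-fold lower (3.35 to 9.11), and LTBP1, at 9 against 31 reads, was 3.04-fold higher (1.41 to 7.25). LTBP1, the only one called higher, passed the read filter only through its shFTO reads. Other matrix glycoproteins, 15 of 33 tested, had 4 called higher and 5 lower, with a median of 0.15. MATN2 was 6.17-fold higher (3.89 to 10.3). NTN4, a netrin that binds laminin, was higher by a factor of 2.44 (2.23 to 2.67). THBS2 (33 against 86 reads) and ECM1 (23 against 56) were the other 2 called higher, at 2.3 and 2.15. FREM1, a basement membrane protein, was lower by a factor of 12.2 (10.8 to 13.7). MATN3 and SPOCK2 were lower by factors of 11.8 (10.3 to 13.7) and 8.1 (7.64 to 8.59).

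**Figure D4:**
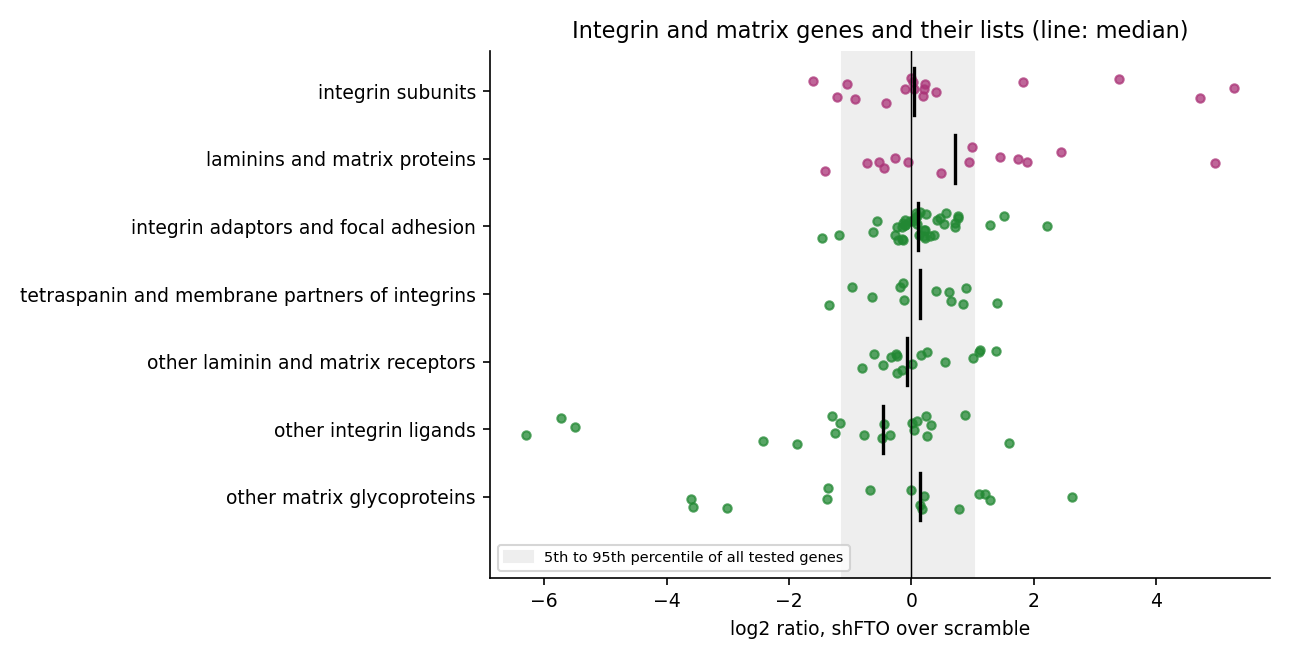
Log2 ratio of shFTO to scramble for the tested integrin subunits, the tested laminins and matrix proteins, and the tested genes of 5 related lists, 1 point per gene, with a line at the list median. The median is lowest for other integrin ligands (-0.46) and highest for laminins and matrix proteins (0.72). LAMB3, which passed the read filter only through its shFTO reads, enters the latter.

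Matrix genes are also made by other cell types, and their markers were counted in the same runs. Of 12 fibroblast or stellate markers COL3A1, DCN, LUM and THY1 had no read, and the summed level was 146 to 147 CPM in scramble and 213 to 219 in shFTO. TAGLN led it with 1680 and 1735 reads against 3721 and 3786, and COL1A1 had 2 and 3 against 61 and 74. PDGFRB had 434 and 455 against 77 and 80, ACTA2 637 and 603 against 796 and 714, and COL6A3 12 and 12 against 12 and 16. Of 12 endothelial markers PECAM1, KDR and ERG had no read, and the list summed to 4.92 to 5.85 CPM in scramble and 3.28 to 3.32 in shFTO. Of the biliary markers 7 of 8 were matched, and they summed to 1603 to 1610 against 1942 to 1953 CPM, with KRT7 at 0 reads in scramble and 34 and 45 in shFTO. SOX9 of that list had 5736 and 5911 reads against 4418 and 4497, 1.48-fold lower (1.44 to 1.52), and KRT19 had 3797 and 3914 against 8500 and 8724. Their part in the levels of NPNT, SPARC, THBS1 and the laminins was not tested.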

How the data were processed

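RNA was sequenced from 4 Hep-G2 libraries, 2 scramble and 2 shFTO. Values deposited by the authors are unnormalized read counts for each Ensembl gene, made with TopHat2 2.1.1 and HTSeq 0.6.0 on hg19, per the submitters' processing notes. No annotation release or strand is given in the sources used here, so reads of genes on opposite strands cannot be separated. Symbols, exon lengths and coding sequences came from GENCODE v29 (GRCh38), which named 51537 of the 62893 genes, and promoters from RefSeq.

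The members and lists were chosen with earlier results of these data known. Libraries were scaled by TMM on genes passing filterByExpr in edgeR 4.0.16 (R 4.3.3), which left 13767 tested genes. Runs of a group were compared by chi-square over genes with at least 20 reads, then pooled. A fold of at least 2 was called. The edgeR quasi-likelihood test was two-sided with a Benjamini-Hochberg adjusted p under 0.05, had 2 residual degrees of freedom and a common dispersion of 9.77e-05, and was checked on simulated data. No single-gene p is given. In each list, all called genes were eligible for naming, or the 4 largest each way at a mean of at least 1 CPM where there were more. Alternatives were other scalings, filters and thresholds, DESeq2 1.42.0, the replicate number as a block and leaving out each run. Figures used matplotlib 3.10.9.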

Additional observations from a re-analysis of the deposited data

How the results depend on the processing

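The gene counts at 2-fold were 9 to 10 higher and 3 to 5 lower when each run was left out, and the members' median log2 ratio was then 0.06 to 0.21. With plain library size the median of all tested genes shifted to 0.18, that of the members to 0.36 and that of the ligands to 0.88. With that scaling edgeR called 6711 genes higher and 3041 lower, beside 4576 and 4594. Among the members it called 19 higher and 10 lower. LAMC1 then passed 2-fold (2.15) while ITGA10 did not (1.84). Upper quartile scaling gave a ligand median of 0.76. Without a low count filter 13 members were at least 2-fold higher and 8 lower, and the medians were 0.05 for members and 0.66 for ligands. At a mean of at least 1 CPM the members' median was 0.05. Keeping members that average 1 CPM or more and overlap no other exon, chosen after seeing the data, left 12 members by its construction, with 3 called higher and 2 lower and medians of -0.43 for members, -0.41 for integrins and -0.44 for ligands. Any overlap counted, also with genes that had almost no read, as for NPNT, HSPG2 and SPARC. Requiring the counting interval to pass 2-fold left 9 higher and 3 lower. Shares over all genes were not computed for the 2-fold counts under these alternatives, so those counts stand without a background. The fit with the replicate block called 15 members higher and 11 lower, as without it. Over all genes it called 4606 higher and 4610 lower. Same-numbered runs did not deviate together (correlation 0.00215). The runs of a group differed by no more than sampling noise, so this value cannot show whether the numbers pair the runs. DESeq2 called 14 members higher and 10 lower, beside 3334 and 3689 over all genes. Of 215 recomputed gene ratios 187 stayed inside their own interval, and no called gene changed sign. Depth limits the genes with few reads, such as ITGAM, ITGB3 and LAMB3. Whether the runs were separate cultures is not known, which limits all genes.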
